A study of Mus musculus with 18 samples.

Results

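The genes described here are the subunit genes of the proteasome, chosen by symbol as every row named Psma, Psmb, Psmc or Psmd followed by a number. There were 39 such genes among the 21923 in the count table. They were read in cortical immunoprecipitates (IP) obtained by translating ribosome affinity purification (TRAP), which captures ribosomes carrying an EGFP tag together with their mRNA. Of these libraries, 3 were named as control and 4 as cKO in the study's source data. All mice were male, on a C57BL/6 background and kept in the home cage. Their labels read GLUT1 flox/flox;GLAC +/wt for cKO and GLAC +/wt for control, so that GLUT1 flox/flox, the loxP-flanked Slc2a1 alleles, is named for the cKO mice alone. The recombinase of the line is GLAST-CreERT2, which is driven by the Slc1a3 promoter and induced by tamoxifen. Libraries are called, or said to be labelled, control or cKO here as the study's source data name their columns. Every mouse received a Cre-dependent virus expressing EGFP-L10a under the hGFAP promoter, followed 7 days later by tamoxifen for 5 days at 8 to 10 weeks of age, and RNA was collected 60 days after tamoxifen. The tag depends on Cre and on the hGFAP promoter, and the IP also retains RNA of untagged cells. In such bulk samples, fewer cells of a type and less RNA per cell cannot be told apart.

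The proteasome degrades proteins marked with ubiquitin and supplies the cell with amino acids and short peptides. Its core particle, termed 20S, is a barrel of alpha rings, which gate entry, around beta rings, which hold the proteolytic sites. The cap, termed 19S, recognises and unfolds substrates: a ring of ATPases (Psmc genes) sits on the barrel, and non-ATPase subunits (Psmd genes) bind ubiquitin chains, remove them and hold the lid together. Cells build the subunits in fixed proportions, and many of the genes are known to respond together to the transcription factor NFE2L1 when proteasome activity is low.

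The total estimated count lay between 12570309 and 40734343 per library, lowest in the cKO library AstroTRAP_17. Slc2a1, the targeted gene, had 57.6 to 61.7 counts per 10⁶ (CPM) in the libraries labelled control and 56.4 to 61.9 CPM in those labelled cKO. This count is over the whole gene, the deleted part included, and its log2 fold change was -0.013 (95% interval -0.28 to 0.25) by edgeR. It therefore does not show the genotype of the libraries. The study reported fewer reads from part of the gene in its cKO IP samples, and less Slc2a1 RNA in cKO IP samples by qPCR. Why the whole-gene count did not differ was not tested, and reads by exon were not analysed here. All 10 astrocyte markers examined were present in every library, among them the gap junction gene Gja1 at 1042 to 1233 CPM. Together the 10 summed to 15030 to 22588 CPM in the controls and 16177 to 27004 CPM in the cKO libraries. The study left out IP samples in which neuronal genes were high. In the libraries used, neuron markers summed to 2799 to 3382 CPM in the controls and 2310 to 3473 CPM in the cKO libraries, and none of the 8 was at 0 in any library. The 8 oligodendrocyte markers summed to 811 to 891 CPM in the controls and 504 to 923 CPM in the cKO libraries. All 8 had a lower fitted level in cKO, as had 6341 of the 13296 genes tested, and 3 of these differences had an unadjusted p under 0.05, against 2.58% of all genes. Microglia markers summed to 50.7 to 104 CPM and endothelial markers to 11.5 to 31.8 CPM over the 7 libraries. The part of other cell types in the results below was not tested, except where a fit with a marker covariate is given.

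Of the 39 proteasome genes, 38 had enough counts to be tested. The exception was Psmb11, the beta subunit of thymus proteasomes, which had at most 10 counts in any library. No member passed edgeR's quasi-likelihood test at an adjusted p of 0.05, a test that called 0.0451% of the 13296 genes tested, with 0.00752% lower and 0.0376% higher in cKO. At an unadjusted p under 0.05 there was 1 member, Psmb5, against 2.58% of all genes. In 2 members, Psmb5 and the assembly chaperone gene Psmd9, all cKO libraries lay below all control libraries, as they did in 2.76% of all genes tested. No member had all cKO libraries above all controls, against 2.35% of all genes. Psmb5 was also the only member called by edgeR's exact test, the test used in the study, and by DESeq2, which called 0.135% and 0.158% of all genes respectively.

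**Figure D1:**
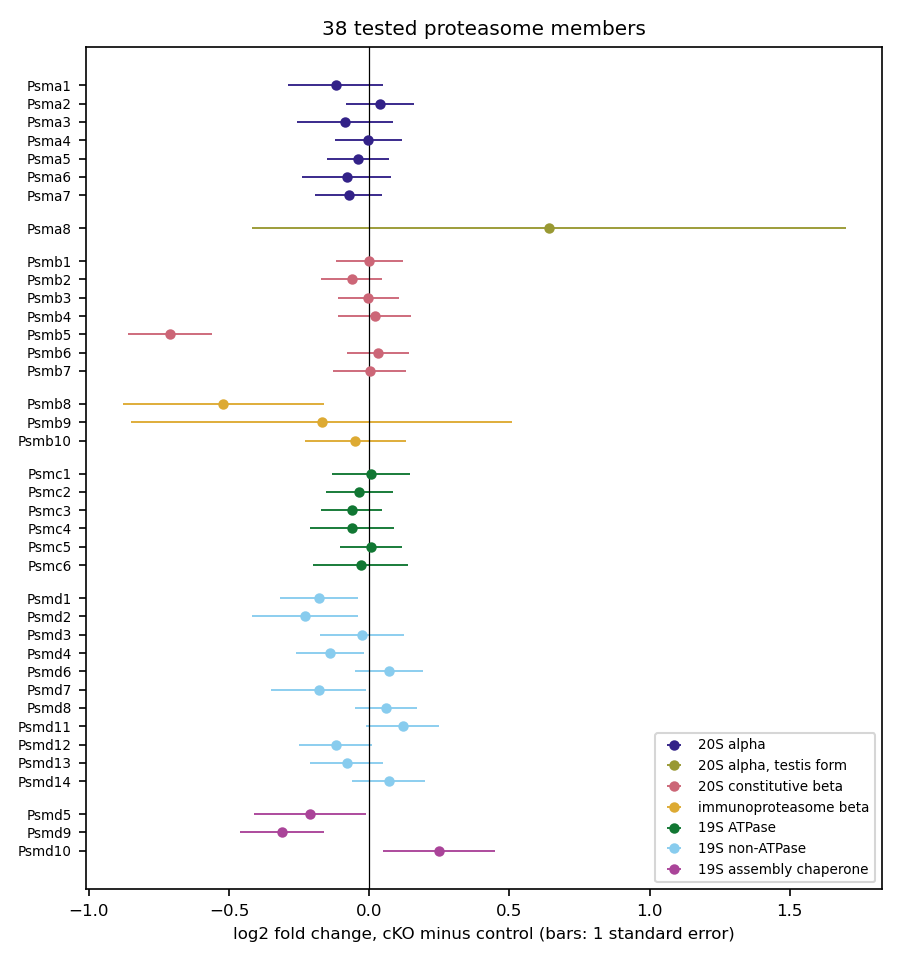
Log2 fold change of each tested proteasome gene between IP libraries labelled cKO (n = 4) and control (n = 3), on the horizontal axis, with bars of 1 standard error and colours for the parts of the complex. Psmb5 lies at -0.71, apart from the other constitutive core and cap genes, which lie between -0.23 and 0.12.

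Psmb5 encodes the beta5 subunit, which carries the chymotrypsin-like site of the core and is the main target of the inhibitor bortezomib. In GRCm38 it occupies chr14:54614120-54617995 on the minus strand. Its level was 286, 281 and 294 CPM in the control libraries AstroTRAP_11, AstroTRAP_15 and AstroTRAP_19. In the cKO libraries it was 169 CPM in AstroTRAP_1, 152 in AstroTRAP_5, 156 in AstroTRAP_9 and 226 in AstroTRAP_17. The groups did not overlap, and AstroTRAP_17 lay between the controls and the other cKO libraries. The means were 287 ± 6.23 CPM (SD, n = 3) and 176 ± 34.3 CPM (SD, n = 4), and the fitted level was 1.64-fold higher in control. Counts did not limit this comparison, since every library had at least 2738 counts of Psmb5.

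The log2 fold change of Psmb5, cKO against control, was -0.71 with a standard error of 0.15 and a 95% interval from -1.04 to -0.38. Its unadjusted p was 6.45e-04 and ranked 16 among all genes tested, and its adjusted p was 0.536 by edgeR's quasi-likelihood test. By size of change, 525 of the 13296 genes tested had a log2 fold change at or below that of Psmb5. The adjusted p was 0.0254 by edgeR's exact test and 0.00635 by DESeq2, with the same log2 fold change in all 3 fits. Without AstroTRAP_17 the log2 fold change was -0.85 and the adjusted p 0.0558 by the quasi-likelihood test. When single libraries were dropped, edgeR's exact test called Psmb5 in 1 of 7 fits, the one without AstroTRAP_17 (adjusted p = 2.47e-05), and the adjusted p of the other fits lay between 0.122 and 0.379. An exact two-sided permutation test of its CPM gave p = 0.0571, the smallest that 3 against 4 libraries allow. Any gene whose groups do not overlap gets this value, so the test adds nothing to that statement. With the oligodendrocyte or the neuron marker level as a covariate the log2 fold change was -0.68 and -0.72, respectively. The unadjusted p of these fits was 0.00935 and 3.07e-04, and the adjusted p 0.345 and 0.231, by the quasi-likelihood test. Psmb5 was singled out with earlier results of these libraries known, so these tests are not independent of that choice.

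RefSeq also lists Psmb5-ps, a pseudogene on chromosome 11 from 102659055 to 102659929. No row of the count table carries that symbol, and how reads shared with it were assigned was not tested.

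Since NFE2L1 is known to act through antioxidant response elements, the region before the start site of Psmb5 is shown with the core letters of that element. The sequence is that of RefSeq for GRCm38.p6, 250 bases up to the start site, 5′ to 3′ on the gene's strand, at chr14:54617996-54618245 on the minus strand, with the letters TGACNNNGC in capitals.
Psmb5: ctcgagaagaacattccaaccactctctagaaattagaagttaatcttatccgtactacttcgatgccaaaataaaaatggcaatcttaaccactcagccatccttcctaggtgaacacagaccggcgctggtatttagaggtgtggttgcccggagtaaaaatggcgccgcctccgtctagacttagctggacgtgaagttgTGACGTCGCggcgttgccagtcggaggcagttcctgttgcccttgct
The capitals begin at position -47 from the start site. On either strand of windows from 250 bases before to 50 after the start site, these letters were found in 5 of the 32 members with an entry, the others being Psmb6, Psmc6, Psmd9 and Psmd12. They occurred in 12.4% of all 32851 windows. The letters CCAAT, searched in the same way, were found in 13 members, Psmb5 not among them, and in 37.4% of all windows. The core motif of nuclear respiratory factor 1, a different protein from NFE2L1, was searched as GCGCA and GCGC with 1 base between them, and was found in 6 of the 32 members, Psmb5 not among them, and in 4.6% of all windows. These are matches of letters and not measured binding sites.

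Neither of the other catalytic subunits passed the test. Psmb6, which carries the caspase-like site, had 253, 240 and 263 CPM in the control libraries and 271, 258, 248 and 251 CPM in the cKO libraries AstroTRAP_1, AstroTRAP_5, AstroTRAP_9 and AstroTRAP_17. Its log2 fold change was 0.030 with a 95% interval from -0.21 to 0.27 by edgeR. Psmb7, which carries the trypsin-like site, had 179, 189 and 200 CPM in the controls and 167, 222, 173 and 196 CPM in the cKO libraries in the same order. Its log2 fold change was 0.0023 with an interval from -0.29 to 0.29. The groups overlapped for both genes, and both intervals lie above the upper bound of the interval of Psmb5.

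**Figure D2:**
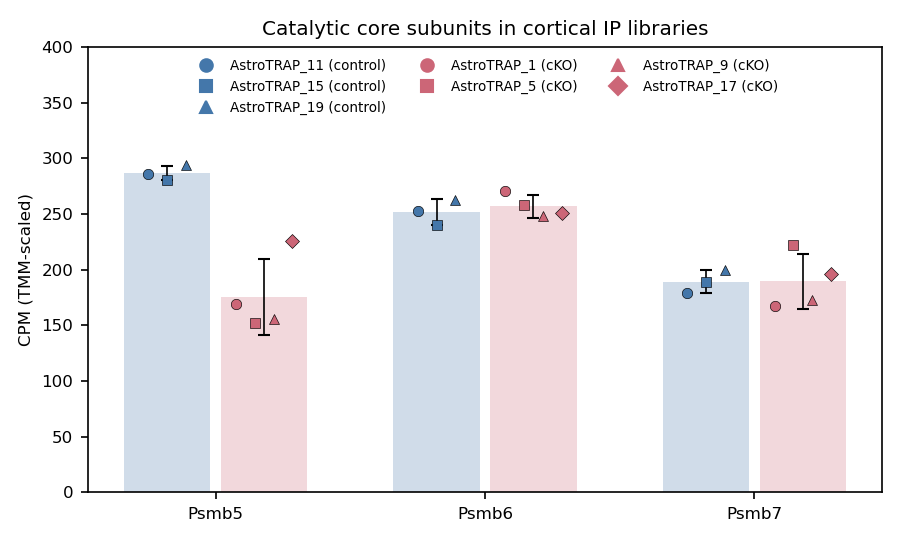
CPM of the 3 catalytic core genes in each IP library, with bars for the group mean, error bars of 1 SD and points for single libraries, 3 labelled control and 4 labelled cKO. Psmb5 has 281 to 294 CPM in the controls and 152 to 226 CPM in the cKO libraries, whereas the groups overlap for Psmb6 and Psmb7.

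None of the remaining core genes passed the test. The 7 alpha genes, Psma1 to Psma7, had a median log2 fold change of -0.073, between -0.12 for Psma1 and 0.038 for Psma2, and 0 of 7 passed the test. The 6 beta genes other than Psmb5, that is Psmb1, Psmb2, Psmb3, Psmb4, Psmb6 and Psmb7, had a median of 0.0013 and lay between -0.063 and 0.030, with 0 of 6 passing. The median over all genes tested was 0.012. For these 13 core genes 0 had an unadjusted p under 0.05 by the quasi-likelihood test, and 0 were called by the exact test or DESeq2. Psma2, the core gene with the highest log2 fold change after Psma8, had 307, 286 and 308 CPM in the controls and 310, 321, 275 and 328 CPM in the cKO libraries AstroTRAP_1, AstroTRAP_5, AstroTRAP_9 and AstroTRAP_17.

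To ask whether Psmb5 departed from its complex, each core gene was set against the mean log2 CPM of the other core genes in the same library, with Psmb5 left out of that mean. This relative level does not depend on library scaling. For Psmb5 it was 0.48, 0.46 and 0.51 on the log2 scale in the control libraries AstroTRAP_11, AstroTRAP_15 and AstroTRAP_19. It was -0.32, -0.35 and -0.31 in the cKO libraries AstroTRAP_1, AstroTRAP_5 and AstroTRAP_9, and 0.15 in AstroTRAP_17. Again AstroTRAP_17 lay between the other cKO libraries and the controls. The means were 0.48 ± 0.027 (SD, n = 3) and -0.21 ± 0.24 (SD, n = 4), a difference of -0.69. The same difference for each of the other 13 core genes lay between -0.11 for Psma1 and 0.078 for Psma2. Since Psmb5 was singled out with earlier results of these libraries known, this contrast is not independent of that choice. The reference, the mean of the other core genes, had a mean log2 CPM of 7.68 ± 0.0038 (SD, n = 3) in the controls and 7.65 ± 0.063 (SD, n = 4) in the cKO libraries. Set against the mean of the cap genes, the difference for Psmb5 was -0.67. When the libraries were scaled by the other core genes in place of TMM, the log2 fold change was -0.69 with an adjusted p of 0.501 by edgeR's quasi-likelihood test, and scaled by all other members it was -0.67 with an adjusted p of 0.979.

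**Figure D3:**
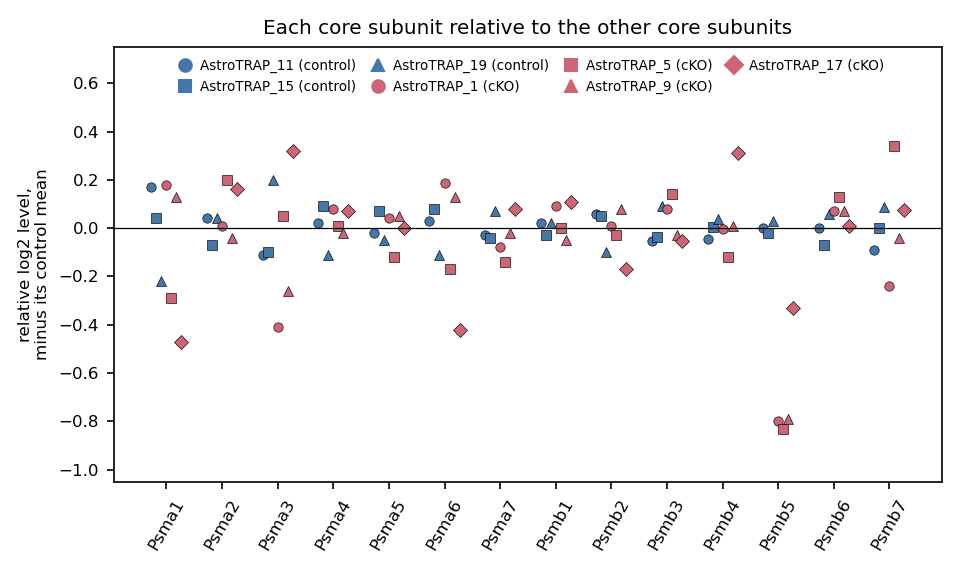
Level of each constitutive core gene relative to the mean of the other core genes (log2), minus its mean over the control libraries, with a point for each of the 3 libraries labelled control and the 4 labelled cKO. Psmb5 lies well below 0 in AstroTRAP_1, AstroTRAP_5 and AstroTRAP_9 and less far below in AstroTRAP_17, and its mean difference between the groups is -0.69.

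The immunoproteasome subunits replace the catalytic ones when interferon is present, Psmb8 in the place of Psmb5, Psmb9 in that of Psmb6 and Psmb10 in that of Psmb7. Psmb8 had 354, 130 and 205 counts in the control libraries and 116, 120, 108 and 64 counts in the cKO libraries AstroTRAP_1, AstroTRAP_5, AstroTRAP_9 and AstroTRAP_17. Scaled for depth this was 4.73 to 9.86 CPM in the controls and 4.65 to 7.16 CPM in the cKO libraries. The groups overlapped, and the log2 fold change of -0.52 had a 95% interval from -1.31 to 0.27 by edgeR. It was -0.33 without AstroTRAP_19 and -0.78 without AstroTRAP_15. Psmb9 rested on 17 to 122 counts per library, with 3.10, 1.35 and 1.25 CPM in the controls and 1.05, 1.43, 1.29 and 3.04 CPM in the cKO libraries. Psmb10 had 43.9, 32.6 and 41.8 CPM in the controls and 36.8, 36.2, 31.1 and 48.5 CPM in the cKO libraries, with a log2 fold change of -0.050. The signs of Psmb9 and Psmb10 turned without AstroTRAP_11, to 0.38 and 0.034. Psma8, the alpha subunit of testis proteasomes, had 1.09, 2.69 and 0 CPM in the controls and 1.54, 1.94, 2.43 and 2.00 CPM in the cKO libraries. Its log2 fold change was 0.64 (standard error 1.06), with 0 to 74 counts per library. It was 0.066 without AstroTRAP_19, the library with 0 counts, and 1.81 without AstroTRAP_15.

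No cap gene passed the test. The 6 ATPase genes, Psmc1 to Psmc6, had a median log2 fold change of -0.033 and lay between -0.063 and 0.0062, and 0 of 6 passed. Their median was 0.014 without AstroTRAP_15 and 0.023 without AstroTRAP_17. The 11 non-ATPase genes, Psmd1, Psmd2, Psmd3, Psmd4, Psmd6, Psmd7, Psmd8, Psmd11, Psmd12, Psmd13 and Psmd14, had a median of -0.081 and lay between -0.23 and 0.12, and 0 of 11 passed. Psmd2, a scaffold of the base, had 229, 266 and 200 CPM in the controls and 238, 180, 232 and 140 CPM in the cKO libraries AstroTRAP_1, AstroTRAP_5, AstroTRAP_9 and AstroTRAP_17. Its log2 fold change of -0.23, the lowest of the cap subunits, had a 95% interval from -0.65 to 0.19, and was -0.094 without AstroTRAP_17 and -0.12 without AstroTRAP_15. Psmd11, a lid subunit, was highest at 0.12, with 139, 142 and 115 CPM in the controls and 163, 133, 150 and 128 CPM in the cKO libraries, and it was at 0.026 without AstroTRAP_19 and at 0.051 without AstroTRAP_1. Psmd4, a ubiquitin receptor, and Psmd14, the deubiquitinase of the lid, did not pass either.

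Psmd5, Psmd9 and Psmd10 encode chaperones that help assemble the base and are not part of the finished cap. Psmd9 had 78.1, 81.9 and 80.2 CPM in the control libraries and 69.7, 68.4, 71.6 and 47.8 CPM in the cKO libraries AstroTRAP_1, AstroTRAP_5, AstroTRAP_9 and AstroTRAP_17. The groups did not overlap, and AstroTRAP_17 was the lowest. The log2 fold change was -0.31 with a 95% interval from -0.65 to 0.028 and an unadjusted p of 0.0681 by edgeR, and it was -0.20 without AstroTRAP_17. Psmd10, known also as gankyrin, had 31.5, 28.8 and 38.5 CPM in the controls and 31.7, 37.5, 34.3 and 53.7 CPM in the cKO libraries, with a log2 fold change of 0.25 (interval -0.20 to 0.71). Its highest value was in AstroTRAP_17, without which the log2 fold change was 0.068. It was 0.38 without AstroTRAP_19.

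The spread between libraries differed from gene to gene. The SD of log2 CPM over the 7 libraries ranged from 0.057 for Psmb6 to 0.25 for Psma1 in the core, Psmb5 left out, and from 0.052 for Psmc5 to 0.31 for Psmd2 in the cap. Set against its mean over all libraries, 12 of the 30 core and cap genes other than Psmb5 departed by more than 0.25 in AstroTRAP_17, with 8 below and 4 above. In each of the other libraries between 0 and 3 did so. In AstroTRAP_17 the departures ran from -0.60 for Psmd7 to 0.34 for Psma3. The mean of the cap minus that of the core was -0.66 in this library and between -0.58 and -0.39 in the others. AstroTRAP_17 had the lowest total count of the 7, and the part of depth in its pattern was not tested. Thinning all libraries to this total, which leaves the counts of AstroTRAP_17 as they are, gave Psmb5 a log2 fold change of -0.73.

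**Figure D4:**
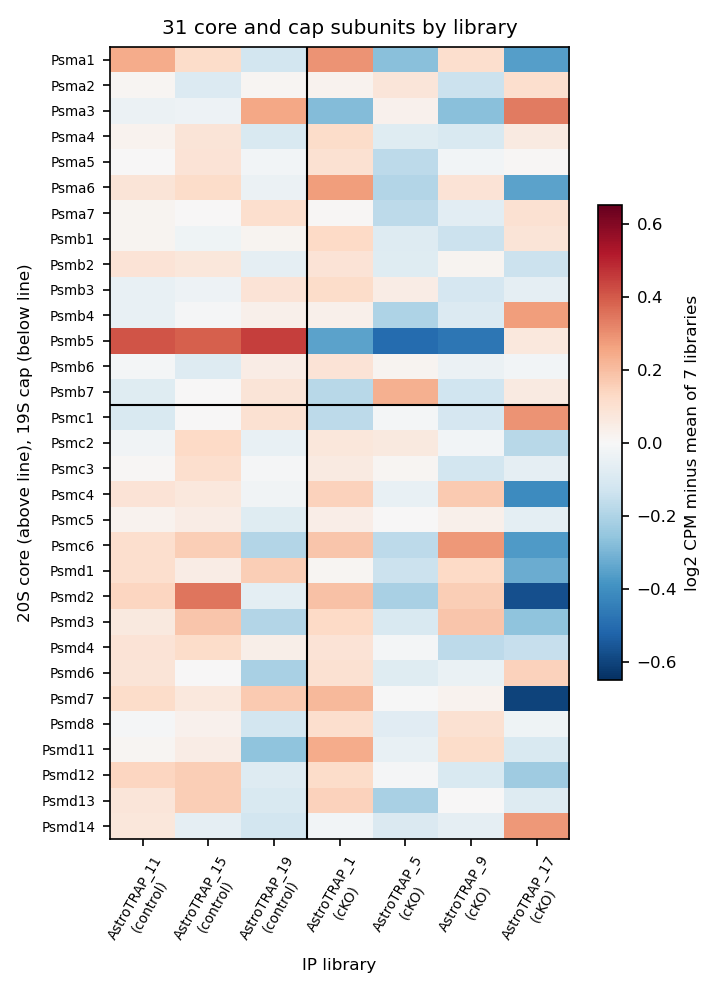
Log2 CPM of the 14 core and 17 cap genes (rows) in the 7 IP libraries (columns), each minus its mean over the libraries, with controls to the left of the vertical line. Psmb5 is the only row in which all cKO libraries lie below all controls, as they do in 2.76% of all genes tested. No row has them all above, against 2.35% of all genes. AstroTRAP_17 is the column with the most departures among the other genes, 12 of 30 by more than 0.25.

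Genes that act around the proteasome were taken from a list of 39 symbols, of which 34 were in the table and all 34 were tested. None passed the quasi-likelihood test of edgeR, the exact test or DESeq2, and 0 had an unadjusted p under 0.05. Their log2 fold changes had a median of -0.011 and lay between -0.24 and 0.27, with 15 above 0. The list holds the activators Psme1 to Psme4, the inhibitor Psmf1, the core assembly factors Psmg1 to Psmg4 and Pomp, ubiquitin genes, shuttle factors and the gene of NFE2L1. The smallest unadjusted p were those of Ddi2, the protease that activates NFE2L1, and of Vcp, the ATPase that extracts ubiquitinated proteins. Ddi2 had 23.1, 20.2 and 25.3 CPM in the controls and 24.1, 29.8, 29.7 and 27.0 CPM in the cKO libraries, a log2 fold change of 0.27 with an interval from -0.093 to 0.64. Vcp had 398, 551 and 360 CPM in the controls and 451, 345, 340 and 345 CPM in the cKO libraries, with a log2 fold change of -0.24 that was -0.036 without AstroTRAP_15, its highest library, and -0.36 without AstroTRAP_19.

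Within 500 kb of Psmb5 on chromosome 14, 33 other genes were in the table and 26 were tested. None passed the quasi-likelihood test, the exact test or DESeq2. At an unadjusted p under 0.05 by the quasi-likelihood test there were 2, Homez and Mmp14, against 2.58% of all genes. All cKO libraries lay below all controls in 3 of the 26, these and Rem2, which had at most 1.27 CPM, against 2.76% of all genes tested. Homez, a homeobox gene at chr14:54852736-54871728, 239 kb from Psmb5 between their lower coordinates, had 26.8, 30.6 and 21.0 CPM in the control libraries and 19.9, 12.8, 13.2 and 11.4 CPM in the cKO libraries AstroTRAP_1, AstroTRAP_5, AstroTRAP_9 and AstroTRAP_17. Its log2 fold change was -0.87 with a standard error of 0.23, and its adjusted p was 1.00 by edgeR's quasi-likelihood test and 0.354 by the exact test. Unlike for Psmb5, AstroTRAP_17 was the lowest library for Homez. Mmp14, a membrane metalloprotease, had a log2 fold change of -0.46, with 24.9, 36.3 and 25.3 CPM in the controls and 22.7, 17.5, 21.6 and 22.1 CPM in the cKO libraries. It was -0.26 without AstroTRAP_15, its highest library.

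**Figure D5:**
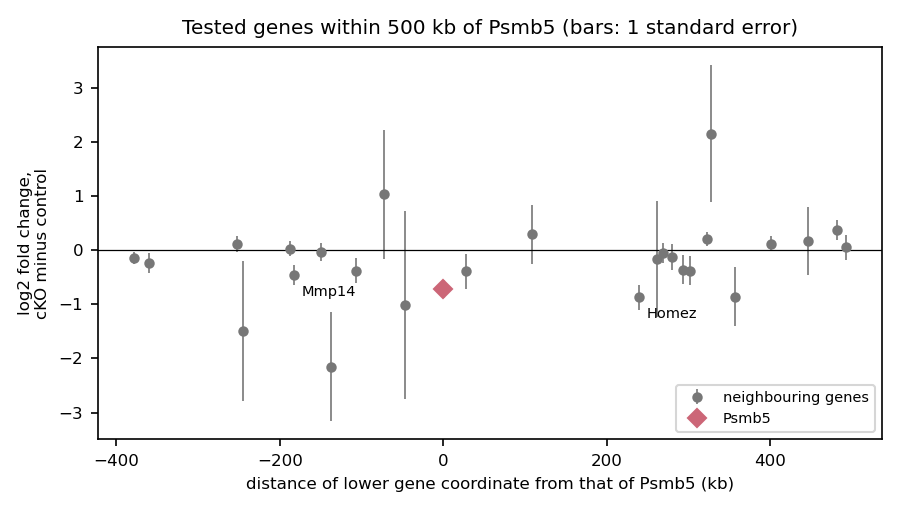
Log2 fold change, cKO against control, of the genes tested within 500 kb of Psmb5 against the distance of their lower coordinate from that of Psmb5 in kb, with bars of 1 standard error. Psmb5 is the diamond at -0.71, with Homez at -0.87 and Mmp14 at -0.46.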

How the data were processed

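The authors trimmed single-end Smart-seq2 reads with cutadapt 1.15, assigned them to GENCODE vM17 transcripts (GRCm38) with kallisto 0.44.0, and deposited estimated counts summed per gene symbol, without scaling for depth or length. Of the table's columns, 7 were used, those that the study's source data name by genotype as cortical IP samples; the names of the other 11 columns show neither sample nor fraction, and these, all input samples among them, were not analysed here. The authors excluded 1 sample for a low read count and IP samples with high neuronal expression. The labels list 5 control and 4 cKO IP samples from separate mice, and the libraries used were 3 control and 4 cKO. By these counts, only control samples were left out among the labelled IP samples. The columns carry no replicate numbers. Counts were rounded, filtered with filterByExpr (13296 genes kept) and scaled by TMM. CPM are counts per 10⁶ of the TMM-scaled library size. Genotypes were compared in R 4.3.3 with edgeR 4.0.16 (glmQLFit and glmQLFTest), with Benjamini-Hochberg adjustment over all genes at 0.05, standard errors from its F statistic and 95% intervals from its t distribution. Relative levels used log2 of CPM plus 0.5. Levels are not compared between genes, as no transcript lengths were used. Alternatives were edgeR's exact test, DESeq2 1.42.0, other scalings, filters and covariates, thinning and leaving out libraries. Tests were tried on simulated data. No 2 libraries of a genotype agreed within counting noise (lowest chi-square per degree of freedom 32.2).

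The members and lists were chosen with earlier results of these data known. Values are given by library for Psmb5, Psmb6, Psmb7, the immunoproteasome genes, and the 2 members with the highest and the 2 with the lowest log2 fold change in core and cap; other lists are named by adjusted p or the 2 lowest unadjusted p. Positions and start sites come from RefSeq (GRCm38.p6), and distances between genes are between their lower coordinates.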

Additional observations from a re-analysis of the deposited data

Results flagged for a closer look

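In 43 sets of 4 values from the libraries labelled cKO (the CPM of each tested member, the mean level of each part of the complex and the relative level of Psmb5), 2 had a library far from the other 3 by Dixon's criterion. About 1 in 20 sets, here 2.15, would be picked out by chance. The relative level of Psmb5 against the other core genes was 0.15 on the log2 scale in AstroTRAP_17 and between -0.35 and -0.31 in the other 3. Psmd9 had 47.8 CPM in AstroTRAP_17 and 68.4 to 71.6 CPM in the other 3. Both values came from the library with the lowest total count.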

How the results depend on the processing

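The log2 fold change of Psmb5 was below 0 in all 26 alternatives run. It was not called in 23 of them, and it was called with edgeR's exact test (-0.71), DESeq2 (-0.71) and the exact test without AstroTRAP_17 (-0.85). These were also the 3 alternatives in which the number of members called was 1 in place of 0. Leaving out 1 library gave -0.85 to -0.65 by either test, and 0 to 1 members called. The number of genes called over the table was 6 in the quasi-likelihood test, 18 with the exact test, 21 with DESeq2 and 10 with the oligodendrocyte covariate. With each library left out in turn it was 4 to 6 by the quasi-likelihood test and by the exact test 10 (without AstroTRAP_11 or AstroTRAP_15), 11 (AstroTRAP_19), 16 (AstroTRAP_9), 18 (AstroTRAP_1), 25 (AstroTRAP_5) and 38 (AstroTRAP_17); these exact-test fits were added after the data had been seen. The medians of the alpha, beta, ATPase and non-ATPase genes and the relative level of Psmb5 moved by less than the spread between libraries. This held in every alternative in which they were computed. The spread was the larger of the control and cKO SD, for Psmb5 0.24 in cKO against 0.027 in the controls. Computed from fitted fold changes, the relative difference of Psmb5 was -0.68, and -0.82 without AstroTRAP_17. The sign of small differences turned in some alternatives, those of the medians included. With 1 library left out, the ATPase median ranged from -0.080 to 0.023, the beta median from -0.021 to 0.039 and the non-ATPase median from -0.15 to -0.025, and with the oligodendrocyte covariate the non-ATPase median was -0.16. The beta median was also below 0 with upper-quartile normalization, no low-count filter, the neuron covariate and thinned counts. With the oligodendrocyte covariate Psmb10 was at 0.15, Psmb9 at 0.16 and Psmd11 at -0.048. Psmb7 was at -0.012 with upper-quartile normalization, -0.0025 with no low-count filter and -0.0089 with the neuron covariate. With 1 library left out, Psmb7 ranged from -0.083 to 0.058, Psmb6 from -0.0042 to 0.059, Psmb9 from -0.60 to 0.38 and Psmb10 from -0.18 to 0.034. The cause of these turns was not tested. No paired analysis was possible because the columns carry no replicate numbers. With 3 and 4 libraries, differences of the size of the intervals above cannot be resolved for single genes.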

Other observations

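Ubb, a gene of ubiquitin, the tag that marks proteins for the proteasome, is named here after its values had been seen. It had 4722, 4887 and 3028 CPM in the controls and 7756 CPM in the cKO library AstroTRAP_1, against 2970, 3072 and 2637 CPM in AstroTRAP_5, AstroTRAP_9 and AstroTRAP_17. The groups overlapped, and the log2 fold change was -0.036 (standard error 0.36) by edgeR. Psmb5 was at 169 CPM in AstroTRAP_1, within the range of the other libraries labelled cKO.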
